A study of Mus musculus with 6 samples.

Results

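Imprinted genes were examined in RNA from stimulated mouse bone cells labelled as osteocytes. They were taken by symbol from a list of 36 imprinted genes, chosen by name but with earlier results of these data known. Among the 56748 genes of the count table, 35 of the 36 were found. The missing symbol was *Nespas*, which a RefSeq gene table gives as another name of *Gnasas1*. Of the 35, 29 had enough counts to be tested, and 6 did not.

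An imprinted gene is transcribed mainly from the allele inherited from the mother or mainly from that inherited from the father, at least in some tissues. The choice is carried by DNA methylation laid down in the egg or the sperm at a control region, and many imprinted genes lie in clusters that share such a region. The paternally expressed genes of the list include *Dlk1*, *Mest*, *Nnat*, *Peg3*, *Peg10*, *Ndn* and *Snrpn*, and the maternally expressed ones *H19*, *Cdkn1c*, *Meg3*, *Igf2r*, *Grb10* and *Gnas*. Many of them act on growth, fat and muscle differentiation or the placenta, and *Gnas*, *Dlk1*, *Igf2r* and *Grb10* have known parts in bone or in hormone and growth factor signaling. The counts pool both alleles, so they measure how much RNA a gene gave and not from which allele it came.

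The study asked what the loss of gasdermin D, the pore-forming protein of pyroptosis, does to osteocytes. Cells were released from the long bones of 7-week-old mice by collagenase and EDTA, cultured for 7 days, and given lipopolysaccharide (LPS) at 10 ng/mL for 3 h and then aluminum hydroxide, an inflammasome activator, at 20 µg/mL for 3 h. There were 3 libraries from WT mice (C57BL/6) and 3 labelled cKO, from *Gsdmd* fl/fl; DMP1-Cre mice, in which Cre is driven by the *Dmp1* promoter of osteocytes and late osteoblasts. All 6 cultures were stimulated and no unstimulated library was analysed here, so that every value compares the genotypes under stimulation. It is not stated whether the replicates came from separate mice, and the p-values then measure the spread between these libraries, which may be technical.

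The libraries held 39566835 to 49734046 counts on genes. *Gsdmd* itself had 609, 699 and 549 counts in WT and 885, 937 and 1045 in the cKO libraries. Counts of a gene pool all its exons and all cells of a culture. The study's deletion removes only critical exons, so these counts do not measure it. The cKO libraries are therefore called the libraries labelled cKO throughout. *Xist*, made from the inactive X chromosome of females, stood at 0 to 0.0889 counts per 1000000 (CPM) in WT but at 1127 to 1159 CPM in the libraries labelled cKO, while 4 Y-linked genes summed to 198.3 to 215.2 CPM in WT and to 0 in the others. Genotype and sex therefore cannot be told apart here, although the study states that its mice were matched for age and sex. Of 16 osteocyte and osteoblast markers, *Sost* had 0 counts in every library and *Dmp1*, *Mepe* and *Bglap* had 10 or fewer, whereas *Col1a1*, *Spp1* and *Sparc* each had 123594 or more. The whole osteocyte and osteoblast list summed to 22030 to 24090 CPM in WT against 15420 to 15970 CPM in the libraries labelled cKO, with 2 of its 9 tested genes rising and 6 falling. All 15 tested macrophage markers of 16 rose, from a sum of 1210 to 1364 CPM to one of 6515 to 6838 CPM, and none of the list was at 0. Of 9 tested chondrocyte markers 6 rose and 2 fell (2334 to 2543 CPM against 3288 to 3485 CPM), and of 9 tested endothelial markers 2 rose and 6 fell (161.1 to 176.2 CPM against 106.7 to 113.3 CPM). Of 14 fibroblast and marrow stromal markers 5 rose and 6 fell (9109 to 9646 CPM against 10440 to 11100 CPM). Each result below moves with these differences, and their part in it was not tested. In bulk RNA, fewer cells of a type and less RNA per cell cannot be told apart.

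The promoters of the 3 imprinted genes that changed most in size, *Mest*, *Nnat* and *Nap1l5*, are shown because imprinting acts through CG pairs near such start sites. They are the 250 bases before a start site, in the direction of transcription, from RefSeq (GRCm38.p6), and each was matched exactly to GRCm39. Capitals mark TGCCGC or its reverse complement GCGGCA, the letters that ZFP57, a zinc finger protein that keeps imprinted methylation in the early embryo, recognizes when they are methylated.
Mest: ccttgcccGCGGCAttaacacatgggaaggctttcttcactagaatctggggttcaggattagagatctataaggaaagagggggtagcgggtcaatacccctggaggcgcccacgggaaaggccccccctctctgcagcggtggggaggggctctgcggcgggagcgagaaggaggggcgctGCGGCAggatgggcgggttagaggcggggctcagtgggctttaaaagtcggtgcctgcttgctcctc
Nnat: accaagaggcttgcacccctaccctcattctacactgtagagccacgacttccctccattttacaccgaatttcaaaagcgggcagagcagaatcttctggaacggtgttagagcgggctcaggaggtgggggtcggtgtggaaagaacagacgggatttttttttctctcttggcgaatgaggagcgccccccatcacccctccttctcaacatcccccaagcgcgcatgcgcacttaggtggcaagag
Nap1l5: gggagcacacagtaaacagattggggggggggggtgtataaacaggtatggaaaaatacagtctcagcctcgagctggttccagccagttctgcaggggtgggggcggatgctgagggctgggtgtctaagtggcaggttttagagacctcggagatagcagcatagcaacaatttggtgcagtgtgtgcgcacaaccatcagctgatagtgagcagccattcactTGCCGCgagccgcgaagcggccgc
The *Mest* window lies at chr6:30737799-30738048 on the plus strand, at a start inside the span the table gives the gene, and no other of the 3 windows listed for *Mest* has more CG pairs. It holds 14 CG pairs and 2 copies of the letters. The *Nnat* window, at chr2:157401748-157401997 on the plus strand, holds 12 CG pairs and none of the letters, and the *Nap1l5* window, at chr6:58884112-58884361 on the minus strand, holds 10 and 1 copy. A promoter was listed for 28 of the genes, and 6 of these had the letters in at least 1 window. Of 40 distinct windows of imprinted genes 7 held them (17.5%), beside 8.75% of the 32536 distinct windows of all genes. The median over the distinct windows of all genes was 6 CG pairs. The letters contain a CG pair themselves, and the 2 shares were not matched for CG pairs. These matches describe letters in a window and say nothing of methylation or binding, which were not measured.

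Imprinted genes moved in both directions, and more of them fell than rose. In edgeR's quasi-likelihood F-test, with Benjamini-Hochberg adjustment over 17146 genes, 12 of the 29 tested imprinted genes fell in the libraries labelled cKO at an adjusted p below 0.05 and 5 rose, where over all tested genes 19.2% fell and 20.1% rose. Their median log2 fold change was -0.26, and that of all tested genes 0.01. With the further limit of a log2 fold change of at least 1 in size, *Nnat*, *Nap1l5*, *Snrpn* and *Dlk1* were called lower (4 of 29, with 4.64% over all genes) and *Mest* and *Cdkn1c* higher (2 of 29, with 6.56%). With at least 10 counts required in every library, *Nnat* and *Nap1l5* were not tested, and 2 were called lower. WT and cKO libraries were fully apart for 18 of the 29, where 49.2% of all tested genes did not overlap. Among the 16 tested paternally expressed genes 8 fell and 3 rose, and all 4 called lower were paternally expressed. Among the 13 maternally expressed ones 4 fell and 2 rose. Imprinted genes outside the list were not split by allele, so this split holds for the list only. Summed over the list, imprinted genes gave 2566 to 2687 CPM in WT against 2248 to 2320 CPM in the libraries labelled cKO, and *Gnas* gave more of that sum than any other member.

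**Figure D1:**
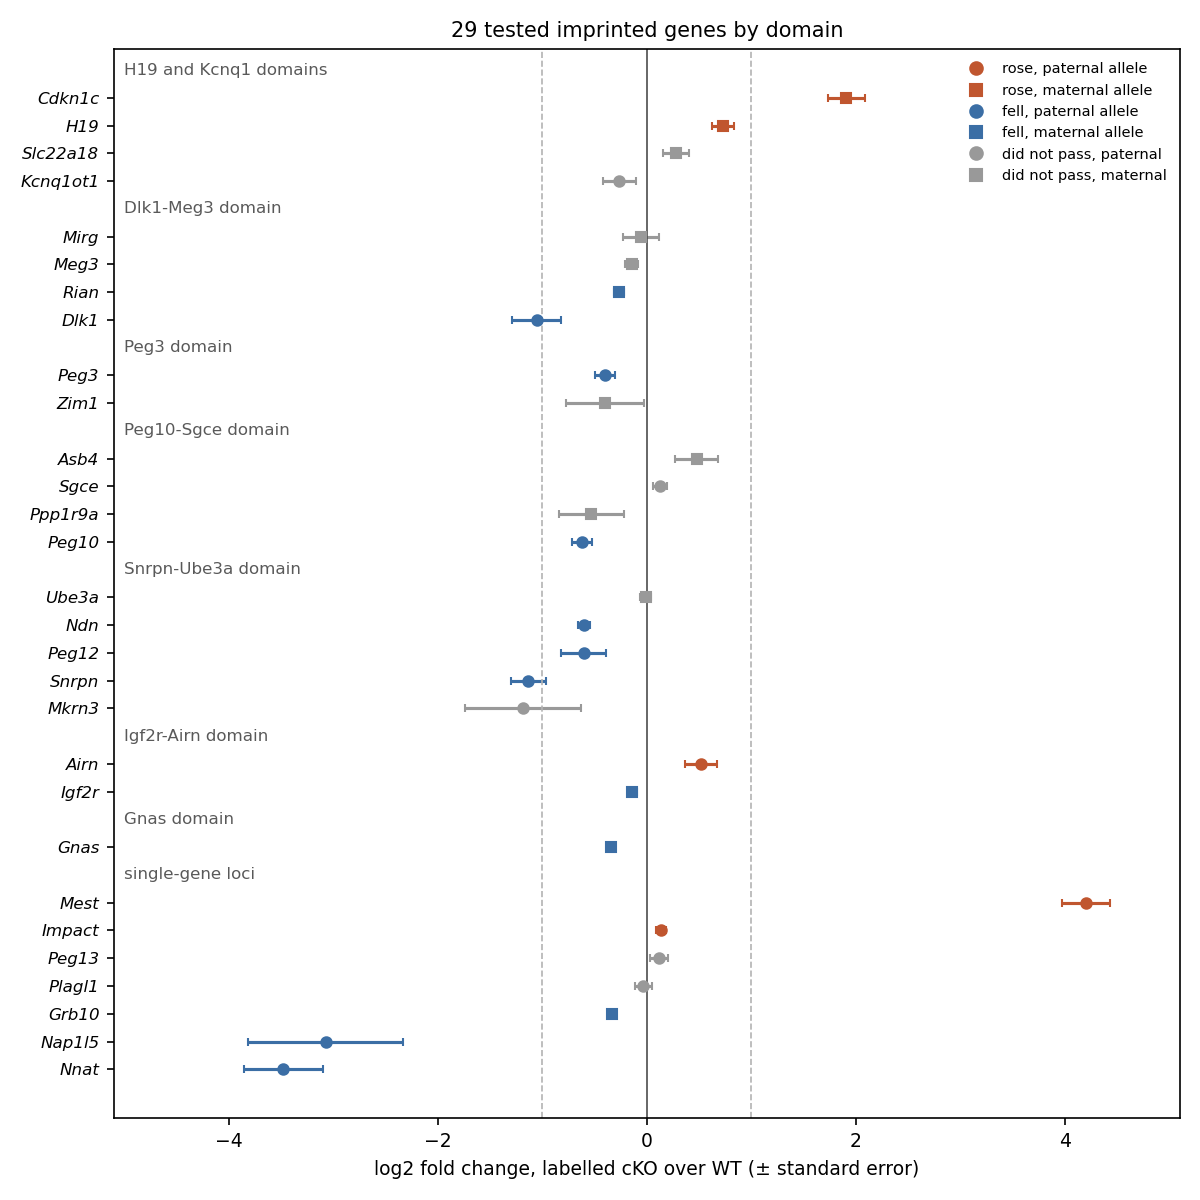
Log2 fold change (libraries labelled cKO over WT) with its standard error for the 29 tested imprinted genes, grouped by chromosomal domain, with dashed lines at 1 and -1. Circles are paternally and squares maternally expressed genes, and red, blue and grey stand for genes that rose, fell and did not pass. Mest, at 4.20, and Nnat, at -3.48, are the outermost points.

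*Mest* showed the largest change of the list. This paternally expressed gene on chromosome 6 (ENSMUSG00000051855, 30723546 to 30748464, mm39) encodes a protein of the alpha/beta hydrolase family that is abundant in embryonic mesoderm and in expanding fat. Its counts were 32, 18 and 33 in WT but 410, 500 and 571 in the libraries labelled cKO. Every one of the latter stood more than 10 times above every WT library. In CPM this was 0.641 ± 0.251 (SD, n = 3) against 11.6 ± 1.63, a log2 fold change of 4.20 (SE 0.228), or 18.4-fold, with an adjusted p of 6.91e-11 (edgeR quasi-likelihood, Benjamini-Hochberg). *Copg2*, a coat protein gene that runs into *Mest* from the opposite strand, had 2134, 2458 and 1915 counts in WT and 1918, 1987 and 2275 in the others, with a log2 fold change of -0.01 (adjusted p 0.944). *Mest* was therefore counted at 0.732% to 1.72% of *Copg2* in WT but at 21.4% to 25.2% in the libraries labelled cKO.

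*Nnat* (neuronatin) and *Nap1l5* fell furthest. *Nnat*, on chromosome 2 (ENSMUSG00000067786, 157401998 to 157404442), encodes a small membrane proteolipid of the endoplasmic reticulum and lies within an intron of *Blcap*, which runs the other way. It had 123, 193 and 109 counts in WT and 8, 6 and 22 in the libraries labelled cKO, with no overlap. The levels were 3.14 ± 0.647 CPM and 0.275 ± 0.182 CPM (SD, n = 3), and the log2 fold change was -3.48 (SE 0.377, adjusted p 7.07e-07, edgeR quasi-likelihood, Benjamini-Hochberg). Replicate 3 of the libraries labelled cKO held most of the *Nnat* counts of its group, and without it the log2 fold change was -4.18. *Blcap* fell too, by a smaller step of -0.17 (adjusted p 0.0155), so that *Nnat* was counted at 4.66% to 7.02% of *Blcap* in WT and at 0.295% to 0.908% in the others.

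*Nap1l5*, a gene without introns related to nucleosome assembly proteins, lies on chromosome 6 (ENSMUSG00000055430, 58882218 to 58884061) inside an intron of *Herc3*. Its counts were 23, 28 and 31 in WT and 0, 7 and 2 in the libraries labelled cKO. The groups were apart, though the low counts of the second group rest on few reads. The log2 fold change was -3.07 (SE 0.742, adjusted p 0.0029, edgeR quasi-likelihood, Benjamini-Hochberg), and without cKO replicate 2 it was -4.61. Its host *Herc3*, on the opposite strand, rose by 0.39 on the log2 scale (adjusted p 0.0134).

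**Figure D2:**
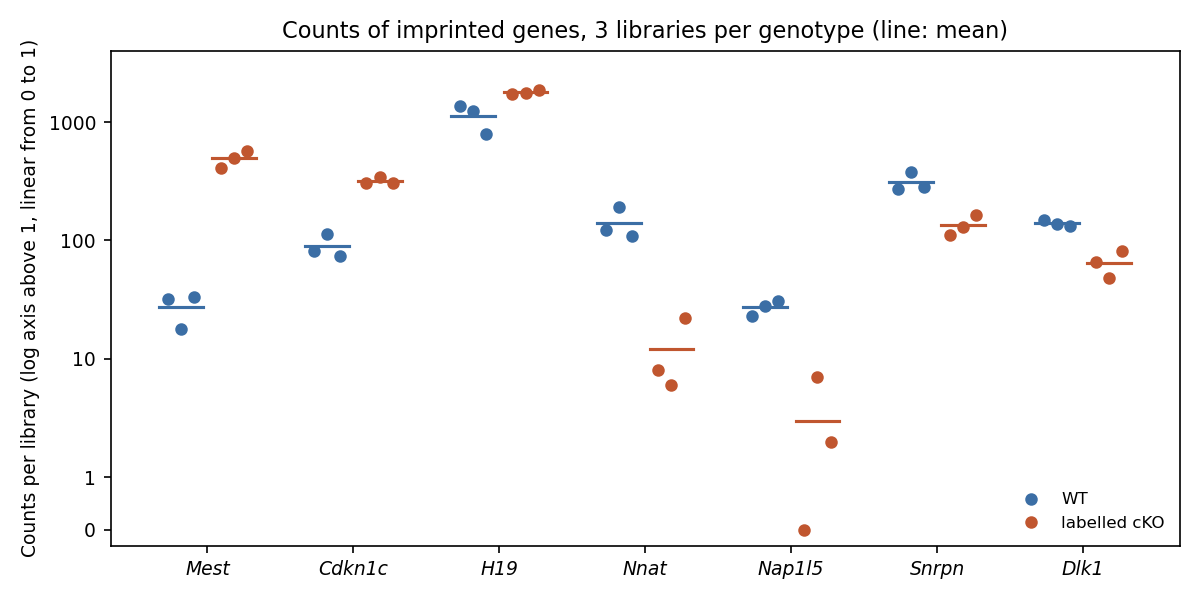
Counts per library (log axis above 1) of the 6 called imprinted genes and of H19, with 1 point per library and a line at the mean of 3. For each gene the WT points (blue) and the points labelled cKO (red) do not overlap, and 1 red point of Nap1l5 is at 0.

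Of the list's genes in the *H19* and *Kcnq1* domains on chromosome 7, 2 of the 3 tested maternally expressed ones rose, where 20.1% of all tested genes did. The change of the paternally expressed antisense RNA did not pass. Of the imprinted genes nearby that are outside the list, given below, more fell than rose. *Cdkn1c* (ENSMUSG00000037664, 143012076 to 143014787), which encodes the cell cycle inhibitor p57, had 81, 113 and 74 counts in WT and 307, 341 and 304 in the libraries labelled cKO. The lowest of the latter was more than 2 times the highest WT library. In CPM it rose from 1.99 ± 0.251 to 7.52 ± 0.962 (SD, n = 3), with a log2 fold change of 1.91 (SE 0.176, adjusted p 8.81e-08, edgeR quasi-likelihood, Benjamini-Hochberg). *Gm44732*, a short noncoding RNA that overlaps *Cdkn1c* on the other strand, went from 7, 7 and 2 counts to 32, 36 and 31 (log2 fold change 2.69, adjusted p 0.000661). *H19*, the growth-restraining noncoding RNA, had 1373, 1233 and 793 counts in WT and 1716, 1769 and 1849 in the others, 25.3 ± 5.05 against 42.0 ± 2.16 CPM. The WT libraries spread widely for *H19*, yet all stood below the other group, and the log2 fold change was 0.73 (SE 0.102, adjusted p 1.52e-05). Its partner *Igf2*, the paternally expressed growth factor that shares its enhancers, had only 6 to 11 counts in WT and 4 to 9 in the others and was not tested.

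*Kcnq1ot1*, the paternally expressed RNA that represses the genes around *Kcnq1*, had 459, 376 and 252 counts in WT and 291, 242 and 329 in the libraries labelled cKO. These groups overlapped, and the log2 fold change of -0.26 did not pass (adjusted p 0.212), though without WT replicate 3 it was -0.40 with an adjusted p of 0.0406. *Slc22a18*, a transporter gene next to *Cdkn1c*, had 318, 307 and 266 against 334, 342 and 357 counts, with a log2 fold change of 0.28 that did not pass (adjusted p 0.09). *Phlda2*, a placental growth restrainer, was counted 6 times in 1 library of each group and 0 times in the others. Further along the domain *Ascl2*, a transcription factor gene of the placenta, had 81, 91 and 68 counts against 20, 16 and 12, and *Tnfrsf23*, a decoy receptor of the TNF family, 7482, 8422 and 7365 against 3423, 3305 and 3498. They fell by 2.24 and 1.12 on the log2 scale (adjusted p 6e-05 and 1.4e-11), while *Cdkn1c* rose between them. *Cd81*, *Nap1l4*, *Osbpl5* and *Tnfrsf22*, other imprinted genes nearby, also fell at an adjusted p below 0.05. Their log2 fold changes were -0.29, -0.36, -0.46 and -0.87. *Dhcr7* rose by 0.33, and *Tssc4*, *Tspan32* and *Trpm5* did not pass.

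In the *Dlk1*-*Meg3* domain on chromosome 12, the paternally expressed gene at one end fell and that at the other end rose. *Dlk1* (ENSMUSG00000040856, 109418749 to 109429262), a Notch-like membrane ligand that restrains fat and bone formation from marrow stromal cells, had 149, 138 and 133 counts in WT and 66, 48 and 81 in the libraries labelled cKO. The groups did not overlap. The level went from 3.17 ± 0.344 to 1.52 ± 0.291 CPM (SD, n = 3), and the log2 fold change was -1.06 (SE 0.235, adjusted p 0.00152, edgeR quasi-likelihood, Benjamini-Hochberg). This lies close to the limit of 1, and without cKO replicate 2 it was -0.92, so that the fold limit was missed while the adjusted p was 0.0104. *Dio3*, which encodes the enzyme that inactivates thyroid hormone, had 337, 313 and 270 counts in WT and 867, 771 and 1005 in the others, and its antisense neighbour *Dio3os* 89, 88 and 59 against 243, 170 and 226. They rose by 1.58 and 1.51 on the log2 scale (adjusted p 6.81e-10 and 8.93e-06). *Dio3* was thus counted at 2.03 to 2.27 times *Dlk1* in WT and at 12.4 to 16.1 times in the others.

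The maternally expressed noncoding RNAs between them changed by small steps or did not pass. *Meg3* had 8309, 7783 and 5636 counts in WT and 6276, 5923 and 6447 in the libraries labelled cKO. The groups overlapped through WT replicate 3, and the log2 fold change of -0.15 did not pass (adjusted p 0.0918), although without that library it was -0.22 with an adjusted p of 0.00181. *Rian*, the host of small nucleolar RNAs and microRNAs, had 8431, 8235 and 6732 against 6079, 5826 and 6689 counts and fell by 0.27 on the log2 scale (SE 0.0474, adjusted p 0.000204). *Mirg*, a microRNA host further on, had 174, 174 and 152 against 146, 139 and 176 counts and a log2 fold change of -0.06 (adjusted p 0.836). *Meg3* was counted at 0.837 to 0.986 times *Rian* in WT and 0.964 to 1.03 times in the others, and this ratio overlapped. *Rtl1*, a retrotransposon-derived gene of the placenta, had 8, 0 and 0 counts in WT and 8, 0 and 10 in the others. The microRNAs of the imprinted domains could not be followed: 55 of 57 precursors were in the table, 37 had 0 counts in every library, and none was tested.

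The *Snrpn*-*Ube3a* domain on chromosome 7 is the region of the Prader-Willi and Angelman syndromes. Of its 4 tested paternally expressed genes that are on the list 3 fell, where 19.2% of all tested genes did. *Snrpn* (ENSMUSG00000102252, 59632243 to 59789967), which encodes a protein of the splicing machinery, had 272, 379 and 285 counts in WT and 111, 131 and 165 in the libraries labelled cKO, again without overlap. Its level fell from 7.01 ± 0.848 to 3.19 ± 0.506 CPM (SD, n = 3), with a log2 fold change of -1.13 (SE 0.170, adjusted p 3.2e-05, edgeR quasi-likelihood, Benjamini-Hochberg). *Gm38393*, a longer transcript model, overlaps *Snrpn* on the same strand, and how far their exons are shared was not examined. It had 137, 110 and 83 against 75, 58 and 78 counts, with a log2 fold change of -0.58 that did not pass (adjusted p 0.0767). *Snurf*, the upstream reading frame of the same RNA, had 0 counts in every library, and all of its 216 exonic bases in the annotation are also exonic in *Snrpn* or *Gm38393*, so its reads cannot be told apart from theirs.

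*Ndn*, which encodes necdin, a growth-suppressing protein of the MAGE family, had 2431, 2804 and 2012 counts in WT and 1518, 1480 and 1545 in the others. It fell from 54.1 ± 2.34 to 35.8 ± 1.63 CPM (SD, n = 3), by 0.60 on the log2 scale (SE 0.0587, adjusted p 1.99e-07). *Peg12*, of the Frat family of Wnt pathway genes, had 134, 142 and 133 against 97, 73 and 88 counts and fell by 0.61 (SE 0.215, adjusted p 0.0333), and missed the adjusted p limit on leaving out WT replicate 1 or 3 or cKO replicate 2 or 3 (adjusted p 0.051, 0.0831, 0.101 and 0.0936). *Mkrn3*, a ubiquitin ligase gene tied to the timing of puberty, had 17, 43 and 30 against 6, 21 and 10 counts. Its log2 fold change of -1.18 did not pass with all libraries (adjusted p 0.103), and without cKO replicate 2 it was -1.87 with an adjusted p of 0.0372. *Magel2* had 0 counts in every library. The 3 counts taken as the limit that a count of 0 allows, if counts are independent, would be 0.0604 to 0.0773 CPM in WT. *Ube3a*, the ubiquitin ligase gene that is imprinted in neurons, had 6215, 6292 and 4753 against 5606, 4955 and 5731 counts and a log2 fold change of -0.01 (SE 0.0508, adjusted p 0.875). *Snhg14*, an imprinted noncoding RNA outside the list, overlaps *Ube3a* on the opposite strand. It had 246, 228 and 172 against 183, 152 and 151 counts, and its log2 fold change of -0.34 did not pass (adjusted p 0.144, edgeR quasi-likelihood, Benjamini-Hochberg).

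*Peg10* and *Sgce* on chromosome 6 are both paternally expressed, run away from each other and start 99 bases apart. *Peg10*, a placental gene derived from a retrotransposon, had 748, 907 and 682 counts in WT and 514, 454 and 479 in the libraries labelled cKO. It fell from 17.5 ± 0.832 to 11.4 ± 0.836 CPM (SD, n = 3), by 0.62 on the log2 scale (SE 0.0939, adjusted p 3.67e-05, edgeR quasi-likelihood, Benjamini-Hochberg). *Sgce*, which encodes epsilon-sarcoglycan of the dystrophin complex, had 1506, 1802 and 1434 counts against 1687, 1609 and 1628, and its log2 fold change of 0.12 did not pass (adjusted p 0.157). Within each library *Peg10* was counted at 0.476 to 0.503 times *Sgce* in WT and at 0.282 to 0.305 times in the others, so these neighbours did not change in step. Of the maternally expressed genes further along, *Asb4*, a ubiquitin ligase adapter, had 121, 190 and 136 against 192, 143 and 262 counts (log2 fold change 0.48, adjusted p 0.078), and of the alternatives run passed only without cKO replicate 2 (0.63, adjusted p 0.0346). *Ppp1r9a*, a scaffold of protein phosphatase 1, had 75, 86 and 46 against 41, 34 and 61 counts (log2 fold change -0.53, adjusted p 0.203). *Tfpi2*, an imprinted protease inhibitor gene beyond the 3′ end of *Sgce*, went from 645, 652 and 735 counts to 77, 40 and 52, a log2 fold change of -3.54 (adjusted p 1.17e-10).

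**Figure D3:**
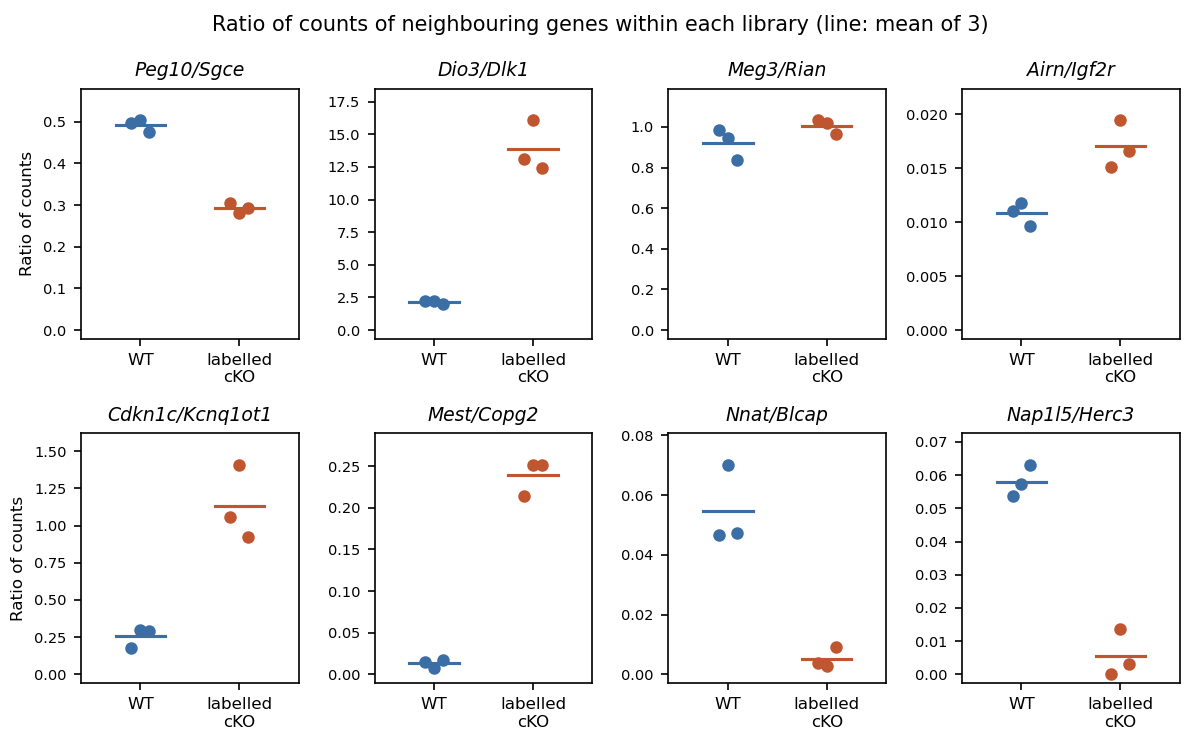
Ratio of the counts of neighbouring genes within each library, 1 point per library and a line at the mean of 3, on linear axes. The ratio of Peg10 to Sgce is 0.476 to 0.503 in WT against 0.282 to 0.305 in the libraries labelled cKO, and of the 8 pairs drawn only Meg3 and Rian overlap.

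The ratios do not depend on the scaling of the libraries, but the pairs were picked after their values had been seen, so they describe and do not test. Of 12 such ratios 11 did not overlap between the groups, in a table where 49.2% of single genes did not.

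At the *Igf2r*-*Airn* domain on chromosome 17, sense and antisense genes moved apart by small steps. *Igf2r*, the receptor that clears IGF2 and sorts lysosomal enzymes, had 18517, 20719 and 17341 counts in WT and 16225, 15801 and 17053 in the libraries labelled cKO. It fell by 0.14 on the log2 scale (SE 0.0412, adjusted p 0.0121, edgeR quasi-likelihood, Benjamini-Hochberg), and missed the adjusted p limit without cKO replicate 1 or 3 (adjusted p 0.0506 and 0.0776). *Airn*, the paternally expressed RNA that silences *Igf2r* on its own chromosome, had 205, 244 and 168 counts against 245, 307 and 283. It rose from 4.60 ± 0.297 to 6.59 ± 0.999 CPM, by 0.52 on the log2 scale (SE 0.155, adjusted p 0.013), and missed the adjusted p limit without cKO replicate 2 (0.39, adjusted p 0.0918). *Airn* was counted at 0.969% to 1.18% of *Igf2r* in WT and at 1.51% to 1.94% in the others.

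*Gnas* and *Grb10*, among the most abundant genes of the list, both fell modestly and with little spread. *Gnas*, on chromosome 2, encodes the stimulatory G protein alpha subunit through which parathyroid hormone acts on bone cells, and is imprinted only in some tissues. It had 49705, 52043 and 45070 counts in WT and 36596, 35511 and 38856 in the libraries labelled cKO. The level went from 1105 ± 56.2 to 872.7 ± 19.01 CPM (SD, n = 3), with a log2 fold change of -0.34 (SE 0.0389, adjusted p 1.38e-06, edgeR quasi-likelihood, Benjamini-Hochberg). *Gnasas1*, on the opposite strand at the start of the domain, had 23, 23 and 4 counts against 16, 26 and 26 and a log2 fold change of 0.55 that did not pass (adjusted p 0.475). *Gm20721*, also opposite to *Gnas* and far more abundant, had 5436, 6103 and 3503 counts against 5484, 4640 and 6132, with a log2 fold change of 0.19 that did not pass (adjusted p 0.0925). *Grb10*, an adapter that dampens insulin and IGF1 receptor signaling, had 12957, 14147 and 11212 counts against 9354, 9258 and 10393 and fell by 0.33 (SE 0.0386, adjusted p 1.61e-06).

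Of the zinc finger genes of the list *Peg3* fell, while *Zim1* and *Plagl1* did not pass. *Peg3*, at the *Peg3* domain of chromosome 7, had 829, 834 and 768 counts in WT and 631, 486 and 654 in the libraries labelled cKO, without overlap, and fell by 0.40 on the log2 scale (SE 0.099, adjusted p 0.00348, edgeR quasi-likelihood, Benjamini-Hochberg). *Zim1*, maternally expressed beside it, had 80, 49 and 38 against 48, 23 and 50 counts and a log2 fold change of -0.40 that did not pass (adjusted p 0.435). *Usp29*, which starts next to *Peg3* on the other strand and encodes a deubiquitinase, had 0 counts in every library. *Plagl1*, a regulator of other imprinted genes, had 951, 1025 and 732 against 789, 801 and 926 counts and a log2 fold change of -0.03 (adjusted p 0.787). *Zdbf2* had 0, 0 and 4 counts against 2, 0 and 0.

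*Impact*, which restrains the amino acid sensing kinase GCN2, had 5712, 6055 and 4542 counts in WT and 5880, 5182 and 6019 in the libraries labelled cKO. Scaled for depth these were 122.0 ± 4.94 and 134.2 ± 4.93 CPM (SD, n = 3), without overlap, and the log2 fold change of 0.14 passed (SE 0.0472, adjusted p 0.0282, edgeR quasi-likelihood, Benjamini-Hochberg). The adjusted p limit was missed without WT replicate 2 or 3 (adjusted p 0.0772 and 0.0684), without cKO replicate 1 or 3 (adjusted p 0.151 and 0.0573), and with upper-quartile scaling (0.07, adjusted p 0.281). *Peg13*, a noncoding RNA inside *Trappc9*, had 970, 963 and 717 against 816, 849 and 1074 counts and a log2 fold change of 0.12 (adjusted p 0.347).

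Compared per kilobase of gene length, the imprinted genes spanned about 3 orders of magnitude. In WT *Gnas* stood first at 97.0 ± 4.94 CPM per kilobase, followed by *Igf2r* at 45.7, *Grb10* at 31.6, *Impact* at 23.8 and *Ndn* at 14.7. *Kcnq1ot1*, listed with a length of 93092 bases, stood last at 0.0869. In the libraries labelled cKO *Gnas* at 76.6 and *Igf2r* at 41.5 kept the first places, *Impact* at 26.2 ± 0.961 and *Grb10* at 25.1 ± 0.584 stood close together, and *H19* followed at 16.0 (mean ± SD, n = 3). *Mest* went from place 26 to place 14 of the 29 genes, *Cdkn1c* from 19 to 12, *Nnat* from 16 to 24 and *Nap1l5* from 24 to 29.

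**Figure D4:**
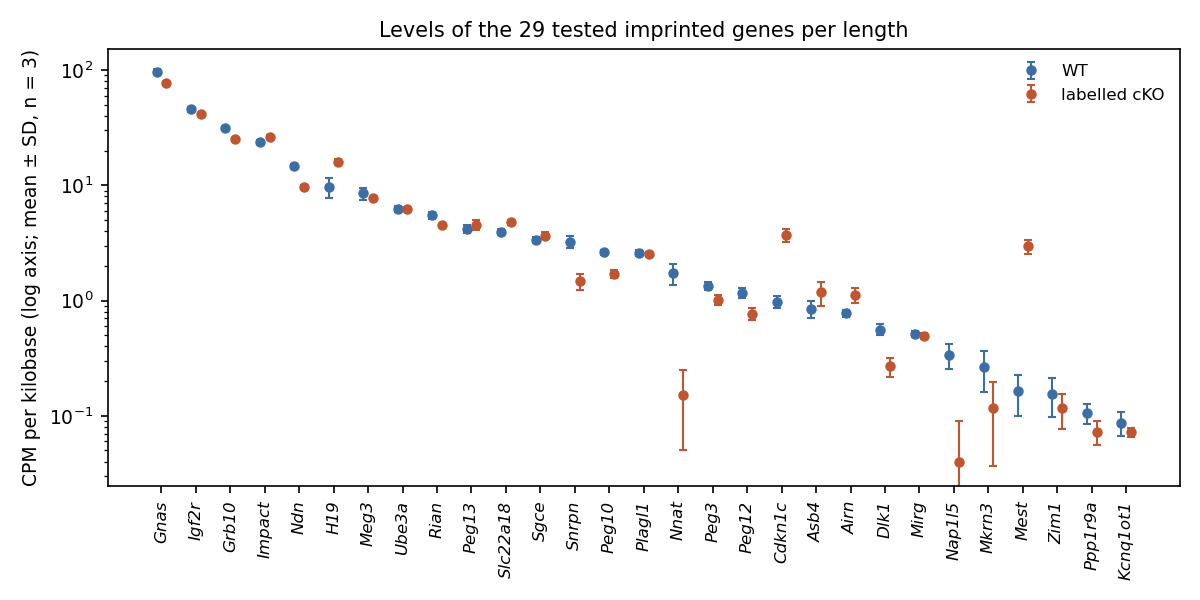
CPM per kilobase of gene length (log axis, mean ± SD of 3 libraries) of the 29 tested imprinted genes, ordered by the WT level, in WT (blue) and in the libraries labelled cKO (red). Gnas leads in both groups, at 97.0 and 76.6. The lower error bar of Nap1l5 runs below 0 and off the axis.

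Gene counting could affect these values where genes overlap. Of the members 15 overlap another gene with at least 20 counts over the libraries, and for 9 of them that gene is on the opposite strand: *Mest*, *Nnat*, *Nap1l5*, *Cdkn1c*, *H19*, *Gnas*, *Ube3a*, *Igf2r* and *Airn*. The library kit keeps the strand, but the strand setting of the counting is not stated in the sources used here, so reads of such partners may not be separated. Among counts of 1 to 10, 63.4% to 65.7% were even numbers, which mates counted singly would give, and a small count can stand for fewer read pairs. Among counts of 11 to 100 the share was only 51.87% to 53.25%. Limits of 3 counts cover counting error only, and would be higher if both mates of a pair were counted.

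The genes that write, read and remove the imprints were also followed, from a list of 30 of which 26 were tested. Of these 7 rose and 4 fell, beside 20.1% and 19.2% of all genes. The log2 fold changes of those that passed ran from -0.28 to 0.45, and the median over all 26 tested was -0.01. The maintenance methyltransferase gene *Dnmt1* had 3282 to 3925 counts in WT against 4028 to 4609 in the others and rose by 0.34 on the log2 scale (adjusted p 8.31e-05, edgeR quasi-likelihood, Benjamini-Hochberg). The de novo methyltransferase gene *Dnmt3a* rose by 0.45 (adjusted p 0.000275) and *Tet3*, which encodes an enzyme that oxidizes methylcytosine, by 0.39 (adjusted p 8.13e-05). *Zfp57* had 156 to 189 counts against 114 to 131, and its log2 fold change of -0.42 did not pass (adjusted p 0.082). Its cofactor gene *Trim28* fell by 0.12 (adjusted p 0.0404), and the Polycomb genes *Ezh2* and *Suz12* by 0.28 and 0.21 (adjusted p 0.0123 and 0.0065). These genes, and *Mbd3*, which fell by 0.26 (adjusted p 0.00302), were named after their values had been seen.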

How the data were processed

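RNA from 3 WT and 3 cKO cultures was sequenced as 150 bp paired-end reads. Per the labels and the study's methods, the authors aligned trimmed reads to mm39 with HISAT2 2.0.5, counted reads per gene with featureCounts, and deposited raw counts per gene, without normalization, with gene lengths and coordinates, which are those printed here. The labels name featureCounts 1.55.0-p3 and the methods another release and RSEM. No row lacked a gene identifier.

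Genotypes came from the sample titles. Counts were tested with edgeR 4.0.16 in R 4.3.3 (filterByExpr, TMM, glmQLFit without robust estimation, glmQLFTest, genotype as the only term), with Benjamini-Hochberg adjustment over 17146 genes. Genes rose or fell at an adjusted p below 0.05 and were called with a log2 fold change of at least 1 in size. CPM are counts per 1000000 of the TMM-scaled library size, and levels per kilobase use the deposited gene length. Standard errors were worked back from the F-test, as the size of the log2 fold change over the square root of F. The biological coefficient of variation was 8.36%. Library totals of 39566835 to 49734046 counts make 3 counts, the limit for a count of 0, 0.0604 to 0.0773 CPM. On counts simulated for this comparison (17146 genes drawn, 16841 tested), 197 of 200 changed genes were recovered, 195 with the fold limit. Of the unchanged genes 3 were called and 15 passed the adjusted p limit alone or with the fold limit. The changed genes were drawn from those with more counts and given changes beyond the fold limit. Recovery of smaller changes and of genes with few counts was therefore not measured.

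Members and gene lists were chosen with earlier results of these data known. Every member was named, those that passed with counts, log2 fold change, standard error and adjusted p, and not all of them with CPM. Of each other list up to 3 higher and 3 lower called genes were to be named, beside genes overlapping a member or sharing its domain, and other names are given as chosen after seeing values. In GENCODE M39 (GRCm39) 35 members were found by identifier, of which 27 shared a start or end with the table. Alternatives were other scalings, filters and tests (DESeq2 1.42.0, limma-voom of limma 3.58.1, edgeR's exact test, glmTreat), halved counts, replicate number as a block, and each library left out in turn.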

Additional observations from a re-analysis of the deposited data

How the results depend on the processing

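Under 17 alternatives, 468 of the 490 recomputed log2 fold changes of tested imprinted genes kept their direction and their side of the adjusted p limit, 12 no longer passed, 6 newly passed and 4 changed sign. All 4 sign changes belonged to genes with changes near 0 that did not pass: *Ube3a* (0.009 with library size only, and from -0.0531 to 0.0233 on leaving out 1 library) and *Plagl1* (from -0.0845 to 0.0041). The 6 called genes kept an adjusted p below 0.05 under every alternative in which they were tested, except *Dlk1* under glmTreat (0.0698 against a fold of 1.5), with *Mest* between 3.89 and 4.44, *Cdkn1c* between 1.80 and 2.01, *Nnat* between -4.18 and -3.20, *Nap1l5* between -4.61 and -2.50, *Snrpn* between -1.25 and -1.01 and *Dlk1* between -1.19 and -0.92. With at least 10 counts required in every library, members called lower numbered 2, since *Nnat* and *Nap1l5* were then not tested. By glmTreat they numbered 3. On leaving out each library in turn, 4 to 5 members rose and 10 to 13 fell, 2 were called higher and 4 lower. Those called lower were not always the same genes, since without cKO replicate 2 *Mkrn3* came in and *Dlk1* dropped out. The replicate numbers did not pair the libraries (correlations of -0.0055, 0.00228 and -0.0103 between the deviations of libraries with the same number), and with the replicate block 5 members rose, 12 fell, 2 were called higher and 4 lower, which changed no call. *Meg3* passed with upper-quartile scaling (adjusted p 0.016) and with genes of at least 1 count (0.0116). Low counts limit *Nap1l5*, *Nnat* and *Mkrn3*, which each fell below 10 counts in a library labelled cKO, and the untested *Phlda2*, *Rtl1* and *Zdbf2* did not exceed 10 counts in any library.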

Other observations

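Imprinted genes outside the list were followed as well, from 63 symbols of which 62 were in the table and 42 were tested. Of these 15 fell and 11 rose, with 5 called lower and 3 called higher, where over all tested genes 19.2% fell, 20.1% rose, 4.64% were called lower and 6.56% higher. Their median log2 fold change was -0.15. Of the 16 tested that lie more than 1 Mb from every member or on another chromosome, 6 fell and 4 rose, beside the same 19.2% and 20.1%. *Sfmbt2*, a paternally expressed Polycomb gene on chromosome 2 with a large cluster of microRNAs in an intron, had 538, 655 and 487 counts in WT and 139, 150 and 173 in the libraries labelled cKO, a log2 fold change of -1.79 (SE 0.126, adjusted p 2.49e-09, edgeR quasi-likelihood, Benjamini-Hochberg). *Gatm*, which encodes the first enzyme of creatine synthesis and is imprinted in the placenta, had 39, 34 and 32 counts in WT and 73, 96 and 107 in the others (log2 fold change 1.45, adjusted p 0.000624). *Rasgrf1*, a paternally expressed exchange factor gene on chromosome 9, had 33, 40 and 28 counts against 0, 2 and 9 (log2 fold change -3.10, adjusted p 0.00163), and was named after its values had been seen. For each of these the libraries of the groups did not overlap, as for 49.2% of all tested genes.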
